A study of Homo sapiens with 6 samples.

Results

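The nuclear lamina genes examined here are 10 genes that encode the proteins of the meshwork under the inner nuclear membrane and the membrane proteins that hold it: the lamins LMNA, LMNB1 and LMNB2, the membrane proteins LBR, EMD, TMPO and LEMD2, the chromatin-bridging protein BANF1, and the SUN-domain proteins SUN1 and SUN2. They were chosen by name, and all 10 were found among the 19970 protein-coding genes on chromosomes 1 to 22 and X of a RefSeq gene table of GRCh38.p14. For each gene the peaks of SON and HMGB2 that lie in its span or within 5 kb of either end were read from 4 deposited peak lists. These were 20 of 22216 SON peaks in untreated cells, 10 of 11028 SON peaks after 3 days of ICM, 6 of 5481 SON peaks after 6 days of ICM, and 21 of 5992 HMGB2 peaks in untreated cells.

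The lists come from ChIPmentation, in which antibody-bound chromatin is tagged with sequencing adapters by a transposase on the beads, of IMR90 cells, an established human embryonic lung fibroblast line. The labels do not expand ICM, and the study concerned senescent cells and the place of SON and HMGB2 beside CTCF in genome architecture. All SON cells were fixed with 1% formaldehyde for 10 minutes, and HMGB2 cells with 1.5 mM EGS for 20 minutes before the same formaldehyde step, so target and fixation cannot be told apart between SON and HMGB2. Each group has 1 list, so no difference between groups has a replicate check and none was tested (the other 2 samples, an input and one labelled DSG, both for HMGB2, were not analysed here). Sequencing depth is unknown, and since peak lists hold no expression values, the cell type was not checked against marker genes.

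The nuclear lamina is built from A-type lamins, which LMNA encodes, and B-type lamins, which LMNB1 and LMNB2 encode. It anchors heterochromatin at the nuclear edge, away from nuclear speckles, the interior bodies rich in splicing factors in which SON is a scaffold protein. HMGB2 is a DNA-bending protein of the high mobility group. Loss of LMNB1 is a widely used marker of senescent fibroblasts, as background.

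In untreated cells 8 of the 10 genes had at least 1 SON peak, and LBR and TMPO had none. That is 80% of the genes, with an exact binomial (Clopper-Pearson) 95% interval of 44.4 to 97.5% that covers counting error only, where 57.1% of all protein-coding genes had such a peak. At 3 days of ICM 6 of the 10 genes had a SON peak (60%, 26.2 to 87.8%), against 41% of all protein-coding genes. The same 6 genes, LMNA, LMNB2, EMD, BANF1, SUN1 and LEMD2, had one at 6 days of ICM (60%, 26.2 to 87.8%), against 21.5% of all protein-coding genes. LMNB1 and SUN2 had a SON peak only in the untreated list. HMGB2 peaks were found at 5 of the 10 genes, LMNA, LBR, EMD, SUN1 and SUN2 (50%, 18.7 to 81.3%), against 23.3% of all protein-coding genes.

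A long gene has more room for a peak, and 8 of the 10 genes span 10 to 100 kb, EMD and BANF1 being shorter. Of these 8, 6 had a SON peak without treatment, 4 after 3 days and 4 after 6 days, and 4 had an HMGB2 peak. Among all 10964 protein-coding genes of that span, 61.6%, 44.1%, 21.9% and 24% had one in the same order. The counts moved with the choice of peaks. With a global irreproducible discovery rate (IDR, the expected share of peaks that do not repeat between the 2 replicates behind a SON list) of at most 0.05, the SON counts were 7, 4 and 2 genes, where 45%, 24% and 5.02% of all protein-coding genes had a peak. When every list was reduced to its top 5481 peaks by −log10 p, the SON counts became 5, 5 and 6 genes, where 26.2%, 27.2% and 21.5% of all protein-coding genes had one, so the fall in the count from untreated cells to 6 days was absent among equally many peaks.

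**Figure D1:**
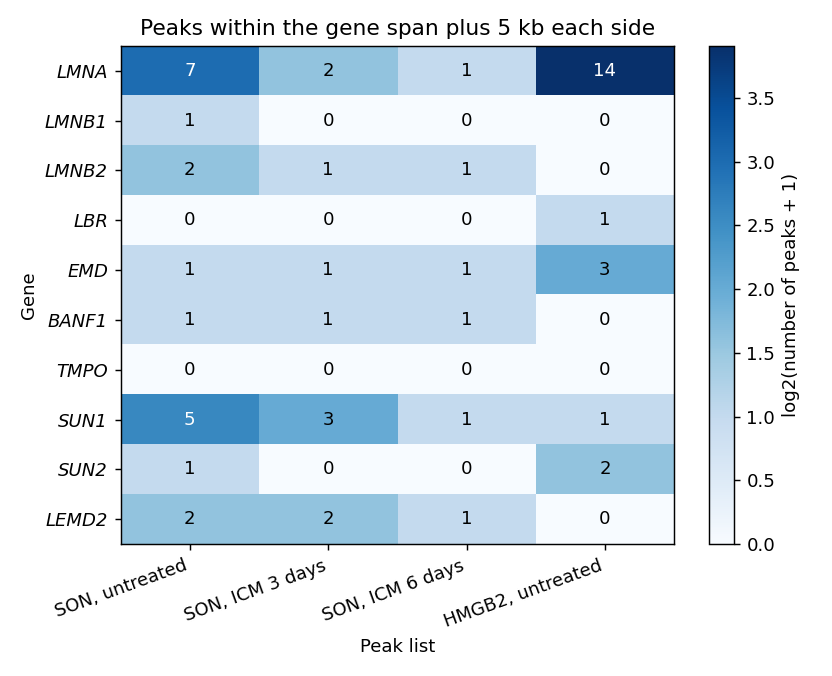
Number of peaks in the span of each gene plus 5 kb each side (rows) in each of the 4 peak lists (columns), with colour on a log2(number + 1) scale. LMNA holds 7 untreated SON peaks and 14 HMGB2 peaks, and TMPO holds none in any list.

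The genes fell into 6 patterns over the 4 lists. LMNA, EMD and SUN1 had a peak in every list, a pattern of 10.6% of all protein-coding genes. LMNB2, BANF1 and LEMD2 had SON peaks in the 3 SON lists and no HMGB2 peak, a pattern of 9.66% of all protein-coding genes. LMNB1 had a peak in the untreated SON list alone (12.4% of all genes), SUN2 in the untreated SON and HMGB2 lists (3.65%), LBR in the HMGB2 list alone (1.52%), and TMPO in none (40.3%).

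The peaks themselves were followed between lists, a peak counting as found again where at least 1 bp overlapped. Of the 20 untreated SON peaks at the 10 genes, 10 were found again at 3 days (50%, 27.2 to 72.8%) and 6 at 6 days (30%, 11.9 to 54.3%). Of all untreated SON peaks, 45.4% were found again at 3 days and 21.9% at 6 days. The shares at the 10 genes depended on which peaks were counted: they were 85.7% and 57.1% of 7 peaks with lists of equal length, and 26.7% and 13.3% of 15 peaks with an IDR of at most 0.05. All 6 peaks found at 6 days were also found at 3 days, and 10 of the 20 were found at neither time. In the other direction every one of the 10 peaks at 3 days and the 6 peaks at 6 days overlapped an untreated peak, where 91.6% of all 3-day peaks and 88.9% of all 6-day peaks did so. These counts lie near the shares of all peaks, and the untreated list is the longest. With the 5481 strongest peaks of each list, BANF1 had a 6-day peak and no untreated one. That follows from the cut and shows no gain of SON. The 6-day list holds 5481 peaks and was left whole, while the untreated peak, ranked 9441 of 22362, was cut away. The 6-day peak ranked 5436 of 5583 and had a global IDR of 0.63. Both later lists were set against the same untreated list.

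The untreated peaks found again were among the stronger ones. Strength is the authors' −log10 p of a peak, which equals the lower of the 2 replicate values for SON, and ranks peaks within a list only. The 10 peaks found at 3 days had untreated −log10 p values from 10.24 to 44.45 with a median of 21.79. The 10 peaks not found at 3 days ranged from 6.434 to 15.79 with a median of 10.36, so the ranges overlapped. Over all untreated peaks the medians were 15.35 for those found at 3 days and 7.941 for the others. At 6 days the 6 peaks found again had a median of 26.3 and the other 14 a median of 10.79.

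Among the lamins, LMNA held the most peaks. LMNA encodes lamins A and C and lies on chromosome 1 from 156082573 to 156140081 on the plus strand, a span of 57.5 kb with 3 RefSeq starts, the third of them 24.1 kb inside the gene. Its 7 untreated SON peaks had −log10 p values of 8.042, 10.62, 10.1, 30.0, 10.24, 15.79 and 6.434 from the 5′ to the 3′ side. The fourth stood above the others: it lay at chr1:156106114-156106619, 97 bp before the third start, ranked 1574 of 22362 lines and had a global IDR of 0.00479. Of all protein-coding genes, 136 had more untreated SON peaks than LMNA.

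At 3 days of ICM LMNA had 2 SON peaks, with −log10 p values of 17.01 and 5.58, and at 6 days 1, with 11.72. The weaker 3-day peak had the largest global IDR of its list, 0.447. The peak present in all 3 lists was the one at the third start. It ranked 1818 of 11158 at 3 days, with a global IDR of 0.00621, and 1124 of 5583 at 6 days, with a global IDR of 0.0732. Its 2 replicate values were 30.0 and 36.47 in untreated cells, 17.01 and 20.02 after 3 days, and 11.72 and 12.98 after 6. The untreated peak at the first start, chr1:156082428-156082670, had a global IDR of 0.115 and was not found later. It also overlapped the start of MEX3A, which runs the other way, so its gene cannot be told from its position.

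HMGB2 had 14 peaks in LMNA, which covered 9.39% of its span and lay 48.0 kb apart from the first to the last. Their −log10 p values ran from 7.428 to 39.72 with a median of 10.32, and their fold enrichments over the caller's background from 3.541 to 11.24. Only 2 protein-coding genes had more HMGB2 peaks, and 5, LMNA included, had as many or more. Per 10 kb of span plus margins LMNA had 2.07 HMGB2 peaks, and the much shorter EMD had 2.45. The strongest, at chr1:156106045-156106595, ranked 103 of 6013 by its −log10 p of 39.72, had a fold of 11.24, and overlapped the SON peak at the third start in all 3 SON lists. The next were at chr1:156104080-156104457, with a −log10 p of 24.48, and at chr1:156130232-156130702, with 22.12. Of the 14 peaks, 6 overlapped an untreated SON peak. A run of 4 peaks between 156122542 and 156123964, with −log10 p values of 12.41, 12.98, 9.468 and 17.43, had no SON peak in any list. Of the 7 untreated SON peaks of LMNA, the 6 inside the gene overlapped an HMGB2 peak and the 1 at the first start did not. An HMGB2 peak at chr1:156082738-156083068, with a −log10 p of 8.401, lay close beside that SON peak without overlapping it.

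**Figure D2:**
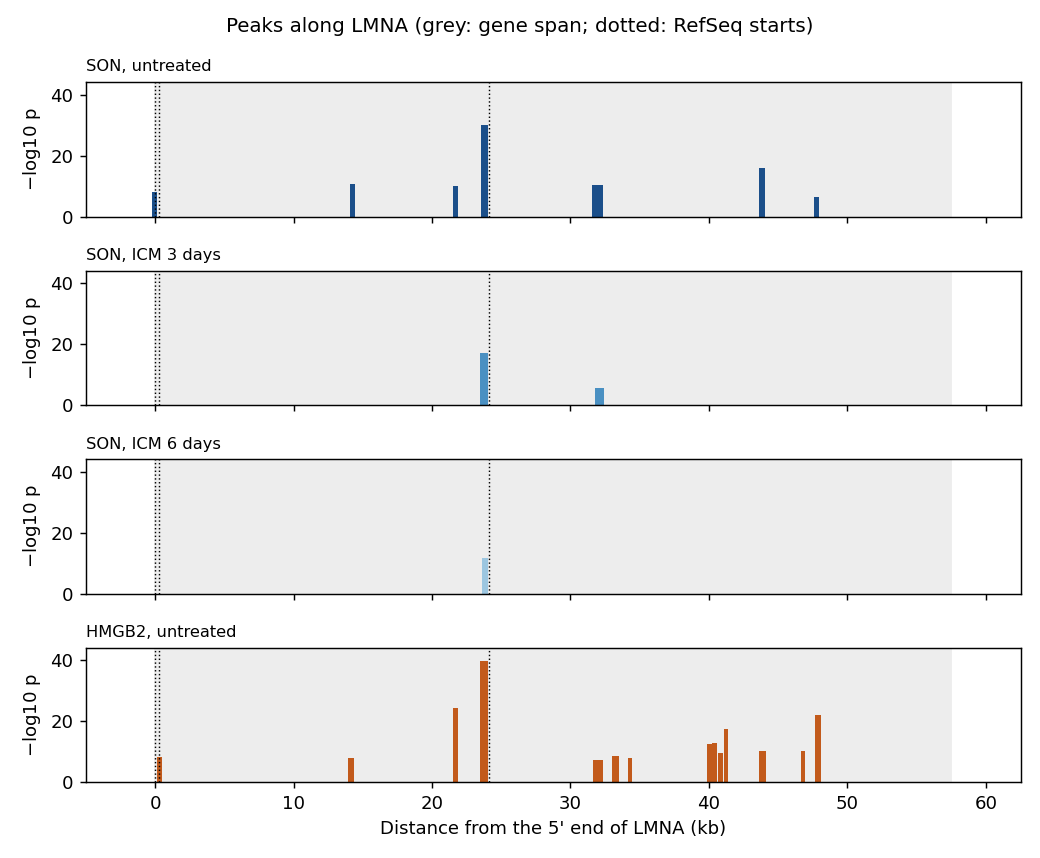
Peaks along LMNA in the 4 lists, as −log10 p (bar height) against the distance of the peak's centre from the 5′ end of the gene in kb; bars are at least 0.35 kb wide for legibility, grey marks the gene span and dotted lines the 3 RefSeq starts. The SON peak before the third start is in all 3 SON lists, and 14 HMGB2 peaks spread from the first start to beyond 47 kb.

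The 250 bases before the third LMNA start are shown because SON was found there in all 3 lists and HMGB2 had its strongest peak at these genes there. They lie at chr1:156106466-156106715 on the plus strand of GRCh38.p14, from RefSeq, and the SON and HMGB2 peaks cover their 5′ part. Here and in the sequences that follow, written 5′ to 3′ in the gene's direction, capitals mark matches on either strand to GGGCGG (the GC box), CCAAT (the CCAAT box), TTTGAA (the cell cycle homology region, CHR), TTTNNCGC (E2F-like) and CCGGAAG (ETS-like).
LMNA start 3: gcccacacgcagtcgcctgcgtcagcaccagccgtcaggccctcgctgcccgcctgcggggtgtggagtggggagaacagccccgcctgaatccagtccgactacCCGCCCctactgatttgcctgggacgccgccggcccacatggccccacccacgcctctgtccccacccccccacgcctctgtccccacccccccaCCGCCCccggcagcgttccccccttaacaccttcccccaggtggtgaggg
It holds 2 GC boxes on the strand opposite to the gene and none of the other motifs. A match of letters is a description and not a binding site.

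LMNB1 encodes lamin B1. It lies on chromosome 5 from 126776623 to 126837020 on the plus strand, 60.4 kb long, and had 1 peak in the 4 lists together. That untreated SON peak was at chr5:126776637-126777154, over the second of the gene's 2 RefSeq starts and just inside the first, with a −log10 p of 14.47 in each of the 2 replicates, a rank of 6391 of 22362 and a global IDR of 0.00801. The start of the divergent transcript LMNB1-DT lay within 1 kb of it. At 3 and 6 days of ICM the nearest SON peaks were 101 kb and 251 kb from the gene, and the nearest HMGB2 peak was 194 kb away. The peak passed an IDR of at most 0.01 but was not among the 5481 strongest of the untreated list, and 56.0% of untreated peaks had, like it, one value for both replicates.

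The 250 bases before the second LMNB1 start lie inside that peak, at chr5:126776886-126777135 on the plus strand.
LMNB1 start 2: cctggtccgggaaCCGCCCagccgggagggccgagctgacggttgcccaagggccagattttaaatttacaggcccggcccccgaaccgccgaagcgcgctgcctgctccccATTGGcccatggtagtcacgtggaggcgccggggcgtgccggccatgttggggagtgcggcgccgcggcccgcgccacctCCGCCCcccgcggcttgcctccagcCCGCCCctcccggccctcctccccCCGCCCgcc
The window holds 4 GC boxes and 1 CCAAT box, all on the opposite strand, with a GC content of 75.6% and 29 CpG. The median of 22131 such windows before starts of protein-coding genes was 62% GC and 16 CpG.

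LMNB2 encodes lamin B2 and lies on chromosome 19 from 2428166 to 2456959 on the minus strand. It had 2 untreated SON peaks, at opposite ends. The peak at its start, chr19:2456769-2457247, had a −log10 p of 15.54, a rank of 5675 and a global IDR of 0.0215, and was not found at 3 or 6 days. The peak at its 3′ end, chr19:2427440-2428172, had −log10 p values of 41.13 without treatment, 36.94 after 3 days of ICM and 21.44 after 6, with ranks of 772, 555 and 249 and global IDRs of 0.00143, 0.000143 and 0.00253. This second peak covers the start of TIMM13, a mitochondrial import gene, and lies 28.8 kb from the start of LMNB2. The span of TMPRSS9 also ends within 5 kb of it. Neither the peak at the LMNB2 start nor that at the LMNB1 starts was among the 5481 strongest untreated peaks, so at equal list length neither gene had SON at its start in any list. The untreated peak at the first LMNA start was likewise not found later.

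The LMNB2 window is shown as a start whose SON peak was not found later, at chr19:2456960-2457209 on the minus strand.
LMNB2 start: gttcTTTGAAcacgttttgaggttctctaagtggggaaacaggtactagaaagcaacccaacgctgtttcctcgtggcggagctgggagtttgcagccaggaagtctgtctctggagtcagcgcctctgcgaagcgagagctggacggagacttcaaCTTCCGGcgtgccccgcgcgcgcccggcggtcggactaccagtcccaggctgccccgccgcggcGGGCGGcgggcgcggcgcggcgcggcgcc
It holds 1 GC box, 1 CHR match and 1 ETS-like match.

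Of the membrane proteins that bind the lamina, EMD had the strongest SON peaks. EMD encodes emerin, a LEM-domain protein of the inner nuclear membrane that is lost in a form of muscular dystrophy, and lies on the X chromosome from 154379295 to 154381523, a span of 2.23 kb beside FLNA, which encodes an actin-binding filamin and whose 5 kb margin holds the same peak. Its 1 SON peak covered the start in every SON list, at chrX:154378608-154379511 in untreated cells. Its −log10 p was 44.45 without treatment, 38.29 after 3 days of ICM and 17.53 after 6, with ranks of 643 of 22362, 520 of 11158 and 365 of 5583. In each list more than 93% of lines were weaker, and the global IDRs were 0.00125, 0.000558 and 0.00692. The untreated peak had the same value, 44.45, for both replicates. EMD and LMNB2 were the 2 genes that still had a SON peak at 6 days with an IDR of at most 0.01, where 2.68% of all protein-coding genes had one.

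HMGB2 had 3 peaks at EMD. The first, chrX:154378700-154379139, lay inside the SON peak of untreated cells and had 8.745 as its −log10 p and a fold of 3.863. The others lay 2825 and 3728 bp beyond the 3′ end, with −log10 p values of 8.24 and 5.251, and overlapped no SON peak. All 3 were in the weaker part of the HMGB2 list, where 40.2%, 33% and 2.94% of lines were weaker.

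The 250 bases before the EMD start are shown because SON covered them in all 3 lists, at chrX:154379045-154379294 on the plus strand.
EMD start: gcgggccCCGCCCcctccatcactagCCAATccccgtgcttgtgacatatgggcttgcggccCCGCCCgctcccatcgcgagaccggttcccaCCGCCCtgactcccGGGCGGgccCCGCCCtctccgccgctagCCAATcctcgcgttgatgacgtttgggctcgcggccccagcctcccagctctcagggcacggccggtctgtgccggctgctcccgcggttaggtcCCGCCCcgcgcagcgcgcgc
They hold 6 GC boxes and 2 CCAAT boxes, with 31 CpG.

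BANF1 encodes the barrier-to-autointegration factor, a small protein that binds DNA and the LEM domains of emerin, LEMD2 and the products of TMPO. It lies on chromosome 11 from 66002503 to 66004149. It had 1 SON peak in each SON list, at chr11:66002017-66002584 in untreated cells, with −log10 p values of 11.23, 7.172 and 5.345. Within its own list, 57.8% of lines were weaker without treatment, 25% after 3 days and 2.56% after 6; the lists differ in length, so these shares show no change of the peak. Both later peaks had the largest global IDR of their list, 0.447 and 0.63. EIF1AD starts within the same peak and runs the other way, and the peaks of 3 and 6 days lie nearer to it than to BANF1. BANF1 had no HMGB2 peak, the nearest being 13.3 kb away.

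The window before BANF1 is shown as one with SON in all 3 lists and no GC box, at chr11:66002253-66002502 on the plus strand.
BANF1 start: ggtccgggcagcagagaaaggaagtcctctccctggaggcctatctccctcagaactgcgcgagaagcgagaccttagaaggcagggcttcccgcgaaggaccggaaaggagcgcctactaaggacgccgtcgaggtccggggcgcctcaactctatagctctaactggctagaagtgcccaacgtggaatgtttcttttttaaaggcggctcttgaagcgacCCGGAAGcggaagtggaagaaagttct
Its only match is 1 ETS-like motif, 27 to 21 bases before the start.

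LEMD2 encodes another LEM-domain protein of the inner nuclear membrane, with a part in resealing the envelope after mitosis, and lies on chromosome 6 from 33771213 to 33789130 on the minus strand. SON was found at both of its ends. At the 5′ end, chr6:33788876-33789431 in untreated cells, the −log10 p was 22.59 without treatment, 10.52 after 3 days of ICM and 6.105 after 6, with 87.3%, 61.7% and 9.15% of lines weaker. The 3-day values of the 2 replicates differed, 10.52 against 25.94, and the 6-day peak had the largest global IDR of its list. At the 3′ end the −log10 p was 10.97 in untreated cells and 7.341 at 3 days, with no peak at 6 days. That 3-day peak had the largest global IDR of its list, 0.447. LEMD2 had no HMGB2 peak within 5 kb, and the nearest was 12.1 kb away.

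LBR and TMPO had no SON peak in any list. LBR encodes the lamin B receptor, a sterol reductase that also tethers heterochromatin, and lies on chromosome 1 from 225401502 to 225428821. Its nearest SON peaks were 29.5 kb away without treatment, and 79.7 kb and 79.6 kb away at 3 and 6 days of ICM. Its 1 HMGB2 peak, chr1:225427995-225428169, lay 652 bp inside the gene from the start, with 9.466 as its −log10 p, a fold of 6.401 and 49.1% of lines weaker. TMPO encodes the lamina-associated polypeptides 2 and lies on chromosome 12 from 98515573 to 98550351. Its nearest peaks were 11.2 kb away in the untreated and 3-day SON lists, 42.9 kb away in the 6-day list and 43.1 kb away for HMGB2.

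The first TMPO window is shown as the one of a gene with no peak, at chr12:98515323-98515572 on the plus strand.
TMPO start 1: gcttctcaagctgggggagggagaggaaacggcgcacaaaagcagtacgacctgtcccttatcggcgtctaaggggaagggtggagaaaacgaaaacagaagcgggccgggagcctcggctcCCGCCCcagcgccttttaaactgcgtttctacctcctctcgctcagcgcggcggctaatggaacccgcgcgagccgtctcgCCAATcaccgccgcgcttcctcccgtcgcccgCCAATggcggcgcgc
It has 30 CpG, 1 GC box and 2 CCAAT boxes, so a GC-rich start with these boxes was found at genes with and without SON peaks.

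SUN1 and SUN2 encode proteins that span the inner membrane and grip nesprins of the outer membrane, forming the bridge between lamina and cytoskeleton called the LINC complex. SUN1, on chromosome 7 from 815557 to 874934, had 5 untreated SON peaks, 3 after 3 days of ICM and 1 after 6. The untreated −log10 p values were 20.98, 6.998, 10.68, 14.56 and 23.38 in the order of coordinates. The 3-day values were 9.455, 9.505 and 16.47, at positions 1, 3 and 5 of that order. The strongest, chr7:876091-876765 in untreated cells, lay 1157 bp outside SUN1 and covered one end of GET4, which takes part in inserting tail-anchored proteins into membranes. The peak that lasted to 6 days was at position 3, chr7:831692-832086 in untreated cells and inside the gene. Its −log10 p was 10.68, then 9.505 and then 7.998, and at 6 days its global IDR was the list's largest, 0.63. The HMGB2 peak of SUN1, with 13.13 as its −log10 p and a fold of 5.972, lay inside the untreated SON peak 2007 bp beyond the lower-coordinate end.

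SUN2, on chromosome 22 from 38734734 to 38755998, had 1 weak untreated SON peak, chr22:38733767-38734197. Its −log10 p was 7.002 and its global IDR was the list's largest, 0.431, and it lay beyond the 3′ end and inside GTPBP1. Neither later list had a SON peak within 5 kb, the nearest being 15.8 kb and 28.8 kb away. SUN2 had 2 HMGB2 peaks. Over the untreated SON peak the HMGB2 −log10 p was 15.25 and the fold 8.409, and at the gene's second start they were 12.47 and 7.871.

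**Figure D3:**
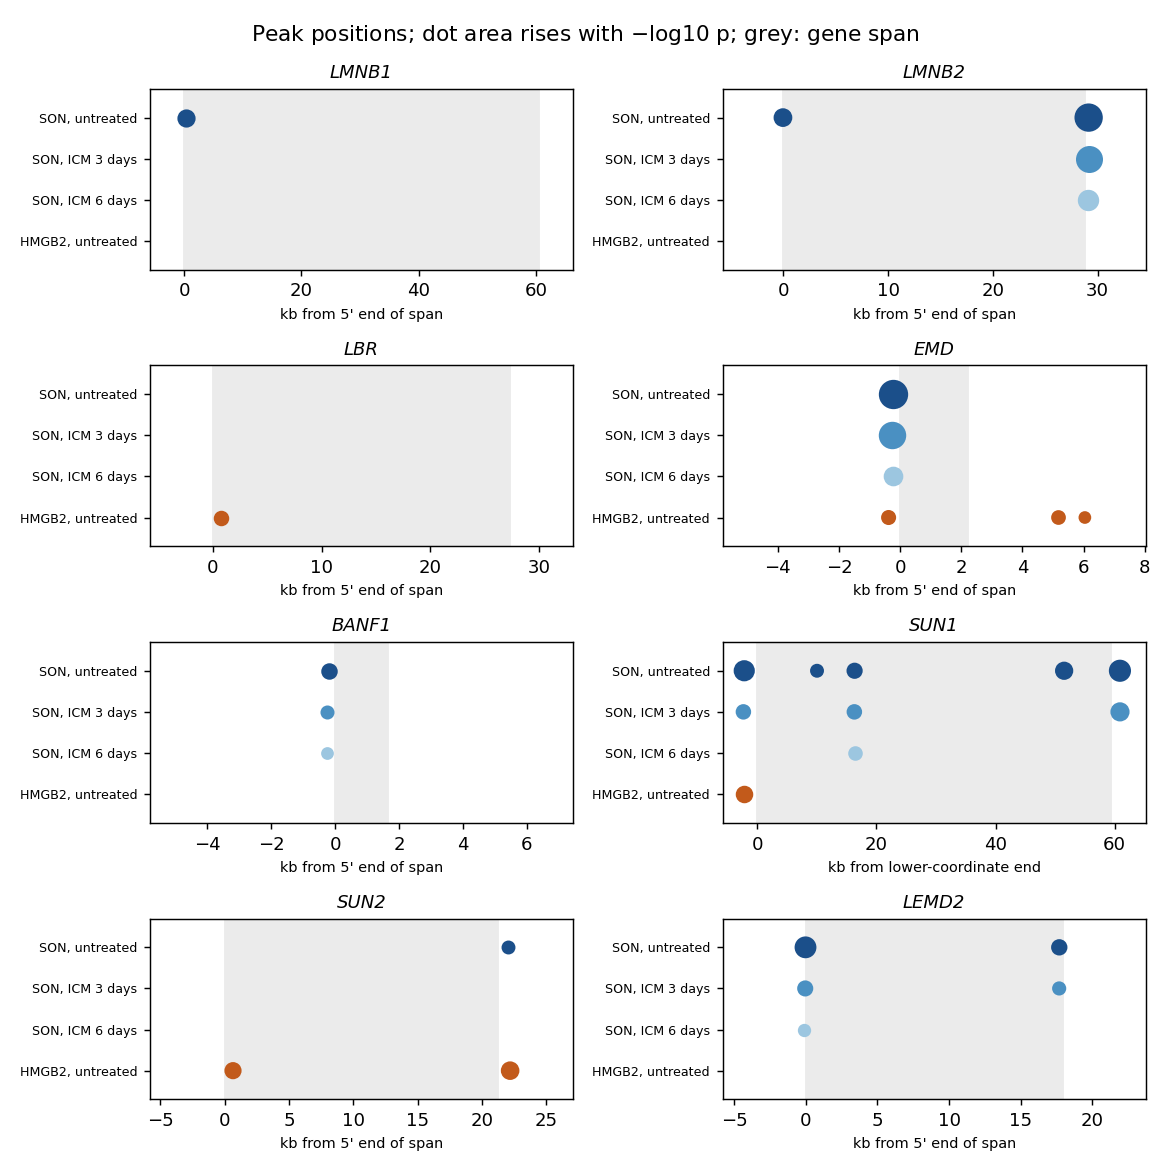
Positions of the peaks of the 8 other genes that had any, in kb from the 5′ end of the gene span (for SUN1 from the lower-coordinate end), 1 row per list; dot area rises with −log10 p and grey marks the span. The LMNB1 dot is alone, and the LMNB2 dots of 3 and 6 days lie at its 3′ end.

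Starts were counted as a group over the 9 genes with a start in the sequence table, all but SUN1, taking the 5′ end of the span as a start too. A SON peak within 1 kb of a start was present at 6 of the 9 genes without treatment, at 4 after 3 days and at 4 after 6, and an HMGB2 peak at 4. Over the 15811 protein-coding genes with a start in the table the shares were 43.8%, 31%, 12.9% and 16.7%. LMNA, EMD, BANF1 and LEMD2 were the genes with SON at a start in all 3 SON lists. Among the 15 windows of 250 bases before the table's starts of these 9 genes, 11 held a GC box (73.3%), against 53.7% of all such windows, and 6 a CCAAT box (40%, against 32.7%). The CHR element was in 2 (11% of all windows), the ETS-like motif in 2 (10.7%) and the E2F-like motif in 1 (7.22%), where it overlaps a GC box before the first LMNA start. The 2 TMPO windows overlap, so their matches are largely the same bases. A loose form of the CTCF core, CNAGNNGGC, was in 2 windows, at the same bases of TMPO, against 23.4% of all windows.

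Across lists, the peaks at these genes stood near or somewhat above the middle of their lists. The share of weaker lines had a median of 64.6% over the 20 SON peaks without treatment, 57.7% and 60.5% over the 10 and 6 SON peaks after 3 and 6 days, and 56.8% over the 21 HMGB2 peaks. The spread was wide in each: from 14.9 to 97.1%, 5.31 to 95.3%, 2.56 to 95.5% and 2.94 to 98.3%. The largest global IDR of the list was that of 2 of the 20 untreated peaks, 3 of the 10 at 3 days and 3 of the 6 at 6 days, where 32.7%, 32.2% and 39.6% of all peaks had it. Replicate values were equal at 12 of the 20, 2 of the 10 and 1 of the 6 peaks. Over all peaks the shares with equal values were 56%, 28.9% and 9.47%. How equal values arose is not stated, so global IDRs, and counts cut by them, may not be alike between lists.

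**Figure D4:**
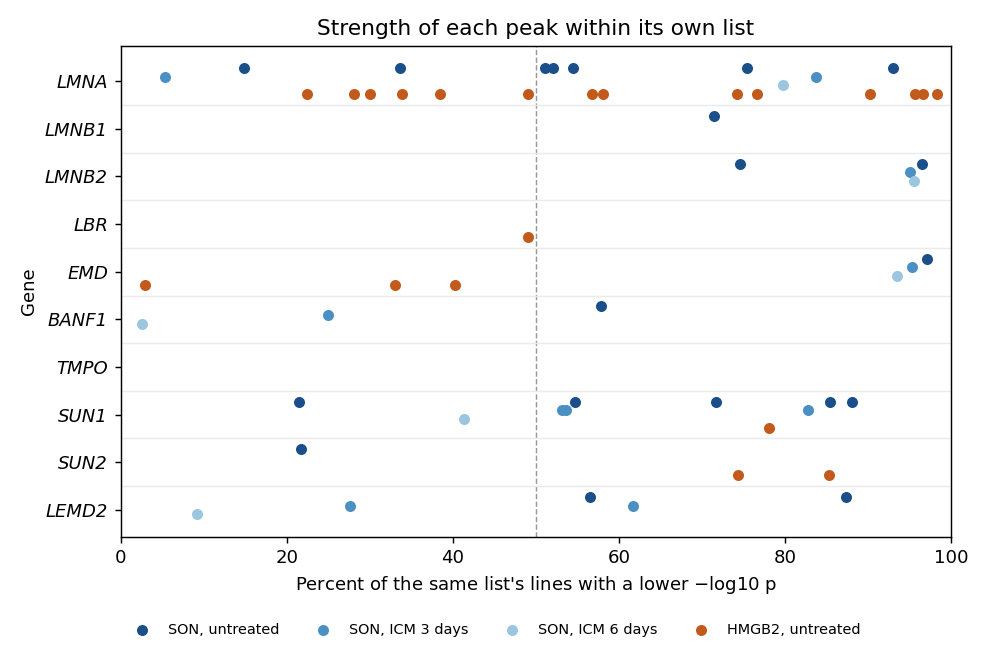
Strength of every peak at the 10 genes as the percent of lines of the same list with a lower −log10 p (x axis), by gene (y axis) and list (colour), with a dashed line at 50%. The EMD SON peaks lie above 93% in each of the 3 SON lists and those of BANF1 at 57.8%, 25% and 2.56%; lists of different length give no change between conditions.

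SON and HMGB2 met at some of these genes. Of the 21 HMGB2 peaks, 9 overlapped an untreated SON peak (42.9%, 21.8 to 66.0%), where 62.3% of all HMGB2 peaks did. A 3-day SON peak was met by 4 (19%, 5.45 to 41.9%), against 44.1% of all HMGB2 peaks, and a 6-day SON peak by 2 (9.52%, 1.17 to 30.4%), against 23.5%. LMNA holds 14 of the 21 peaks, and without it the counts were 3, 2 and 1 of 7. From the side of SON, 9 of the 20 untreated peaks met an HMGB2 peak (45%, 23.1 to 68.5%), against 16.5% of all untreated SON peaks. LMNA supplied 6 of these 9, and without it 3 of 13 did (23.1%, 5.04 to 53.8%).

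The number of SON peaks around the genes differed. Within 500 kb each side of the gene's midpoint, its own peaks left out, there were 34 untreated SON peaks around BANF1, 27 around LMNA and 27 around LMNB2, 17 around EMD, 16 around SUN2, 11 each around SUN1, LEMD2 and LBR, 10 around LMNB1 and 8 around TMPO. The median of all protein-coding genes was 11. At 6 days there were 14 SON peaks around BANF1, 11 around LMNB2, 10 around LMNA, 5 each around LBR and LEMD2 and 4 around EMD. SUN2 had 3, SUN1 2, and LMNB1 and TMPO 1 each, against a median of 2. Coding genes nearby numbered 48 around BANF1, 37 around EMD, 33 around LMNA, 30 around LMNB2, 24 around SUN2 and 22 around LEMD2. There were 14 around SUN1, 9 around LMNB1, 6 around LBR and 4 around TMPO, against a median of 12. Their part in the counts of SON peaks was not tested.

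**Figure D5:**
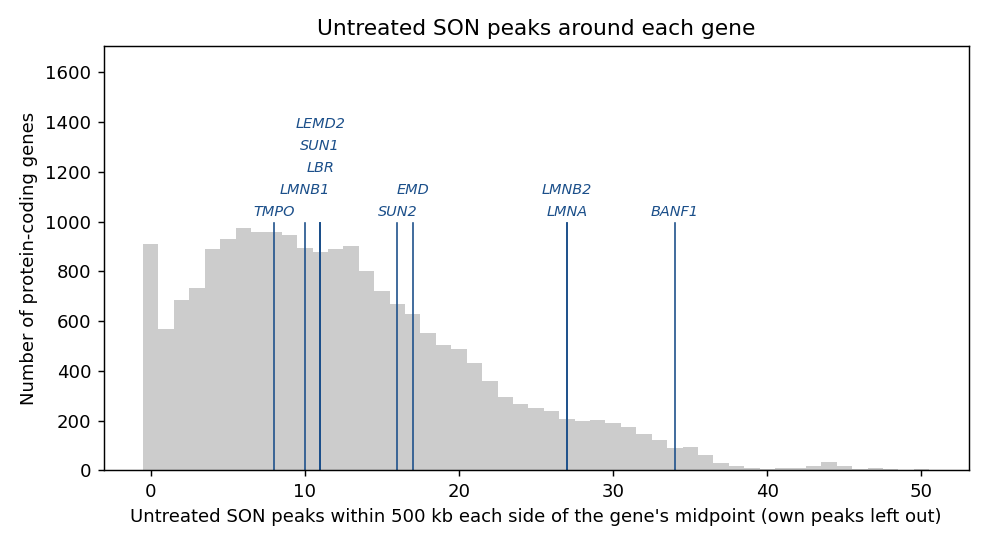
Number of untreated SON peaks within 500 kb each side of the midpoint of every protein-coding gene (grey bars, number of genes on the y axis), with the 10 lamina genes as blue lines. BANF1 stands at 34 and TMPO at 8.

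Other genes of the nuclear envelope were read from 4 lists of 24 genes in all, apart from the 31 nuclear pore genes described at the end. Of 9 other inner nuclear membrane genes, 8 had an untreated SON peak, 6 had one after 3 days and 2 after 6, and 3 had an HMGB2 peak. Of the 4 nesprin genes, which join the SUN proteins to the cytoskeleton, 3, 3, 1 and 1 did. Of 5 genes that process prelamin A or farnesylated proteins, 5, 4, 1 and 1 did, and of 6 kinases and binding partners of lamina proteins, 6, 5, 3 and 2. Set beside the 57.1%, 41%, 21.5% and 23.3% of all protein-coding genes, the counts are of few genes and were not tested. The inner membrane genes TOR1AIP1 and TOR1AIP2 each had 1 SON peak of the same −log10 p, 47.88 untreated and 39.74 at 3 days. The same peak is therefore probably counted for both. Peaks in all 4 lists were found at NEMP1, SYNE1, CBX3 and CBX5. NEMP1, an inner membrane gene, had 3, 2 and 1 SON peaks and 4 HMGB2 peaks. CBX5 and CBX3 encode the heterochromatin proteins HP1 alpha and HP1 gamma. CBX5 had 3 peaks in every list, and its strongest SON peak had −log10 p values of 47.2, 80.29 and 26.94 in the untreated, 3-day and 6-day lists. CBX3 had 1 peak in every list, with SON values of 69.61, 31.74 and 12.61. SYNE1, a nesprin, is 516 kb long and had 3, 2 and 1 SON peaks. Chosen after their values were seen, TMEM43, which encodes an emerin-binding membrane protein, had 3 SON peaks in each SON list, the strongest ranked 69, 92 and 64, and ZMPSTE24, the protease that matures lamin A, had 2, 2 and 1.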

How the data were processed

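The 4 deposited files are peak lists on hg38. The submitters' processing notes name bcl2fastq 2.17, Bowtie2, deepTools and MACS2, without roles or settings, and the control used for calling is not given in the sources used here. Each SON list has the 20 columns of the IDR procedure on 2 replicates. The authors deposited −log10 p per peak and replicate, −log10 of the global IDR, and an IDR score. The HMGB2 list has 10 columns, with the authors' fold enrichment, −log10 p, −log10 q and score; its peak names state q 0.03. Some SON lines have an IDR as high as 0.63, so weak lines are included. How the replicates were made is not stated.

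Peaks on chromosomes 1 to 22 and X were intersected with RefSeq gene spans of GRCh38.p14 plus 5 kb, ranks being over all lines. Starts came from a RefSeq promoter table (9 of the 10 genes), the 5′ end of the span counting as a start too. Coordinates are 1-based. Counts are set beside the share of all protein-coding genes; no test was made. All 10 genes are named; of other envelope genes, those with a peak in all 4 lists, with TMEM43 and ZMPSTE24 added after their values were seen. Neighbouring genes are named where they share a peak with 1 of the 10 genes. They were not looked up for the other envelope genes, whose peaks may also lie at a neighbour. The members and lists were chosen with earlier results of these data known. The interval functions were tested on simulated data. Python 3.11.15, numpy 2.4.6, pandas 2.3.3 and scipy 1.17.1 were used.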

Additional observations from a re-analysis of the deposited data

How the results depend on the processing

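The lists hold no counts, so depth is unknown and a missing peak cannot be told from one below the authors' threshold. With 1 list per group no replicate could be left out. The alternatives without LMNA, those for the other envelope genes and the equal lists for HMGB2 overlap were chosen after seeing the data. Of 99 alternative values 78 stayed within 1.5 times a count or within the interval of a share, and 21 moved, as follows. The cause of these moves beyond the smaller number of peaks or genes counted was not tested. The values that stayed include those for the strongest SON peak of each gene, some of which could not change. The 6-day list is the shortest, so lists of equal length left it whole, and its counts could not change there. Intervals of shares were wide: 13.3% of untreated peaks found at 6 days counted as staying with 30%. The number that stayed is therefore no measure of stability.

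With the 5481 strongest peaks of each list, untreated SON peaks were found at 5 genes and numbered 7. Of the 55 other envelope genes, the 31 nuclear pore genes included, 33 had one, where 26.2% of all protein-coding genes did. With the whole lists 51, 39 and 21 of the 55 had a SON peak without treatment, at 3 days and at 6 days, and 17 an HMGB2 peak. Of the 7 untreated peaks 85.7% had a 3-day partner and 57.1% a 6-day partner, and 20% of HMGB2 peaks met one. With an IDR of at most 0.05, 4 SON peaks were left at 3 days and 2 at 6 days, at 2 genes, LMNB2 and EMD. Of untreated peaks 26.7% had a 3-day partner. The matching shares over all peaks, here and with lists of equal length, were not computed. Other envelope genes with a 6-day peak numbered 6, and 5.02% of all protein-coding genes had one. With an IDR of at most 0.01, 3 genes at 3 days and 2 at 6 days had SON, and 18 and 2 other envelope genes. The shares of all protein-coding genes were 14% and 2.68%. With the stronger 50% of each list, 3 genes had SON at 6 days, 3 had HMGB2, and 10 other envelope genes had SON at 6 days. Of all protein-coding genes 12.8% then had SON at 6 days and 13.7% had HMGB2. In the gene span alone 3 genes had HMGB2, where 15.6% of all protein-coding genes did. Without LMNA, 13 untreated SON and 7 HMGB2 peaks were left. Leaving out peaks nearer to or inside another gene kept SON at 6, 4 and 4 genes, BANF1 being lost from all 3 lists, SUN2 from the untreated one and LMNB2 from the later ones. The share of all genes by that rule was not computed. The strongest SON peak of each gene was the same by either replicate and by IDR. This check was open only where a gene had several SON peaks in a list. Those genes were LMNA, LMNB2, SUN1 and LEMD2 in untreated cells, and LMNA, SUN1 and LEMD2 at 3 days. At 6 days no gene had a choice of SON peaks, so the check could not fail there.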

Other observations

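The nuclear pore, the channel set into the same envelope, was read at 31 genes. A SON peak was present at 29 of them without treatment (93.5%), at 21 after 3 days of ICM (67.7%) and at 14 after 6 (45.2%), and an HMGB2 peak at 10 (32.3%). The shares of all protein-coding genes, by the same window, were 57.1%, 41%, 21.5% and 23.3%. Among protein-coding genes of 10 to 100 kb they were 61.6%, 44.1%, 21.9% and 24%, though some pore genes, such as NUP98 at 123 kb, are longer. Stricter cuts were not made for the pore genes alone. With an IDR of at most 0.05, 6 of all 55 other envelope genes had a 6-day SON peak, against 5.02% of all protein-coding genes. Peaks in all 4 lists were found at NUP98, RANBP2, NDC1, NUP205, TPR and NUP42. NUP98, a nucleoporin with FG repeats, had 2 peaks in each list, and its strongest SON peak had −log10 p values of 40.9, 19.94 and 15.06 in the untreated, 3-day and 6-day lists. TPR, which forms the nuclear basket, had 1 peak in each list, with SON values of 38.84, 35.86 and 6.566. NUP205, a scaffold nucleoporin, and NDC1, which anchors the pore in the membrane, had the strongest HMGB2 peaks of these 6, with −log10 p values of 66.92 and 47.64 and ranks of 40 and 70. NUP42 had 1 peak in each list. The span of RANBP2 in the gene table is 1123 kb, far longer than that of the other genes named here. Whether the peaks counted for it, among them 16 untreated SON peaks, belong to RANBP2 is not known. It is included in the counts of pore genes of all 4 lists.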
